A study of Mus musculus with 18 samples.

Results

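The integrated stress response and its amino acid genes were followed as a list of 36 named genes in mouse mast cells cultured from bone marrow, a standard model of tissue mast cells. Members were chosen by gene symbol from what is known of the pathway, but with earlier results of these data already known. All 36 were among the 45777 genes of the deposited table, and all 36 passed the filter on low counts that left 17159 genes for testing. The list holds 4 kinases of the translation factor eIF2, 7 transcription factors, 7 genes of feedback and growth restraint, 11 genes of amino acid synthesis and one-carbon metabolism, and 7 genes of amino acid transport and tRNA export. RNA was sequenced from 18 libraries in 6 groups of 3. KO cells carried Sirt6 flox/flox with LysM-Cre, a Cre driven by a promoter of myeloid cells, which the labels name a myeloid knockout, and WT cells carried Sirt6 flox/flox alone, so that both genotypes had floxed Sirt6 alleles. Cells of each genotype stood at levels 0, 20 and 60, numbers without a unit in the labels. Treatment is given as none at 0 and as LPS, the endotoxin that TLR4 recognises, at 20 and at 60. The title of the series speaks instead of FcεRI, through which IgE activates mast cells. SIRT6 is a chromatin deacetylase that uses NAD, and the comparison asks which transcripts its deficiency alters. The labels give neither the age of the animals nor any pooling.

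When a cell is short of amino acids or has unfolded protein in its endoplasmic reticulum, one of the eIF2 kinases phosphorylates eIF2. General translation then falls, while a few mRNAs, Atf4 among them, are translated more. The ATF4 protein enters the nucleus, pairs with C/EBP factors and raises genes for amino acid synthesis and uptake, tRNA charging and oxidative defence, and it also raises genes such as Ppp1r15a and Trib3 that limit the response. Much of this control acts on translation and phosphorylation, which mRNA levels do not record.

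Libraries were numbered 4120, 414 and 6110 in every group. The labels do not say what the numbers stand for, so p-values reflect only the spread among these samples, which may be partly technical. Total counts ran from 20026054 to 42265435 per library. The 14 mast cell markers examined were all detected and summed to between 18258 and 48819 CPM (counts scaled to a common library size) in each library, against 10.8 to 27.8 CPM for 12 macrophage and monocyte markers, of which 1 or 2 were at 0 in each group (C1qa, C1qb, Mrc1 or Ly6c2). Markers of neutrophils and their precursors, 14 genes, summed to 9.43 to 28.9 CPM in KO and 1.53 to 6.61 CPM in WT, and Elane and Csf3r were at 0 in all WT groups, with Ly6g and Ltf also at 0 in WT at level 0. The 4 basophil markers summed to 114 to 233 CPM. Mitochondrially encoded genes took from 4.09% to 41.9% of a library's counts, and the 2 libraries of number 414 at level 60 had 34.7% in KO and 41.9% in WT. Sirt6 itself averaged 16.7 ± 2.66, 17.1 ± 3.47 and 11.8 ± 1.72 CPM in KO at 0, 20 and 60, against 14.6 ± 2.44, 14.7 ± 3.50 and 10.7 ± 1.02 CPM in WT (SD, n = 3). Its edgeR adjusted p for KO against WT was 0.74, 0.787 and 0.849. Which exons Cre removes is not stated and counts are per gene, so Sirt6 counts neither check the genotype labels nor show in what share of KO cells the Cre acted. Lyz2, the lysozyme M gene that holds this Cre, summed to 9, 10 and 6 counts in KO at 0, 20 and 60, and to 156, 172 and 186 counts in WT.

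Promoter sequence was examined because many members are known targets of ATF4 and its partners. RefSeq windows in GRCm38.p6, from 250 bases before to 50 bases after a transcription start, were found for 30 of the 36 members, some with more than 1 start, which gave 34 windows. Ppp1r15b, Eif4ebp1, Aldh1l2, Cth, Slc7a5 and Slc1a5 had no entry. The core of the C/EBP-ATF response element, TGATGNAA on either strand, lay in a window of 8 of the 30 genes (26.7%), against 4.51% of all 27025 genes with a window. These 8 were Atf3, Nupr1, Trib3, Chac1, Asns, Pycr1, Pck2 and Slc7a11. The cAMP response element TGACGTCA was found in 1 of the 30, Ppp1r15a (3.33%, against 2.03% of all genes), and the AP-1 site TGANTCA in 4, Ddit3, Eif2ak3, Slc7a1 and Xpot (13.3%, against 8.97%). No member window held more than one of these 3 motifs. A match of letters is a description and not a site of binding.

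The windows of 8 members are shown because they hold a motif and their transcripts changed in the comparisons below. Each is written 5′ to 3′ along the strand of the gene, with the motif in capitals, and positions count from the start. Atf3 (chr1:191183284-191183583, minus strand) has the response element core at -110. Chac1 (chr2:119350992-119351291, plus strand) has it at -193, Trib3 (chr2:152344011-152344310, minus strand) at 14 and Asns (chr6:7693160-7693459, minus strand) at -23. Slc7a11 (chr3:50443564-50443863, minus strand) has 2 copies, at -66 and -47, in the window of a start that lies inside the annotated gene. Ppp1r15a (chr7:45526219-45526518, minus strand) has the cAMP response element at -12. Slc7a1 (chr5:148399855-148400154, minus strand) has the AP-1 site at -123 and Xpot (chr10:121626283-121626582, minus strand) at -71. The other window of Slc7a1 holds none of the motifs, nor do those of Mthfd2 and Sesn2, whose transcripts also changed. Conversely, Nupr1, Pycr1, Pck2, Ddit3 and Eif2ak3 hold a motif and were not called with all libraries by edgeR without a block.
Atf3: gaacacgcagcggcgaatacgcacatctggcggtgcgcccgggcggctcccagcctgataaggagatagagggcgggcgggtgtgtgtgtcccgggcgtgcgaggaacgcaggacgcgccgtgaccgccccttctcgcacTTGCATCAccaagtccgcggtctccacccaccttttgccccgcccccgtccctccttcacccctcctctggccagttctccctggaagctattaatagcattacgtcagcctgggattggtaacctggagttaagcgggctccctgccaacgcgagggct
Chac1: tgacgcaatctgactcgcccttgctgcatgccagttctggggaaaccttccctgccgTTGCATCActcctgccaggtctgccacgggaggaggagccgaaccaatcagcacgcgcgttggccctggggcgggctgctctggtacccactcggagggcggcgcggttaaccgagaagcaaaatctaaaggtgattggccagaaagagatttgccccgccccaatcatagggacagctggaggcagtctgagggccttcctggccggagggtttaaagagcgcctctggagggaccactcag
Trib3: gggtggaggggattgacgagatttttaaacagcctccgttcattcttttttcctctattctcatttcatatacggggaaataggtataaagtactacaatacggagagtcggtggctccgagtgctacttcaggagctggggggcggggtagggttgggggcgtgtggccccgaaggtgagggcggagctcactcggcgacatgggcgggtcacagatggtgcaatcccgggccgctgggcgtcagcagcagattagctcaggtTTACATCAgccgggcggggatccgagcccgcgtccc
Asns: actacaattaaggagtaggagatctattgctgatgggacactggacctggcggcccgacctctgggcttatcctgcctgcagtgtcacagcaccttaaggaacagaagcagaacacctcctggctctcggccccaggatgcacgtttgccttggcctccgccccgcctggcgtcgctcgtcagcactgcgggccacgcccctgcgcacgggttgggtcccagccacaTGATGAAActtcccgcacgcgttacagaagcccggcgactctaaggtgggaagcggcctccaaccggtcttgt
Slc7a11: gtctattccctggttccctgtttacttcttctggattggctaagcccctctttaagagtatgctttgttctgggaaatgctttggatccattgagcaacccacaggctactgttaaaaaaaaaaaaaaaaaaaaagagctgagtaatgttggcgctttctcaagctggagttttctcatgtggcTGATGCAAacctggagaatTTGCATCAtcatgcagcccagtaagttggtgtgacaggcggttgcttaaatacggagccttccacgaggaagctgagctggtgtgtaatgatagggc
Ppp1r15a: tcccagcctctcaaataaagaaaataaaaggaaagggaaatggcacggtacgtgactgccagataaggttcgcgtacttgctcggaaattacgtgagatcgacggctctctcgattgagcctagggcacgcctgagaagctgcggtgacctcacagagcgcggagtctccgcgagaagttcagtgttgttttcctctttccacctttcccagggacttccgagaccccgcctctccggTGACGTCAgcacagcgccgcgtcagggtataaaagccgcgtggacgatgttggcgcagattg
Slc7a1: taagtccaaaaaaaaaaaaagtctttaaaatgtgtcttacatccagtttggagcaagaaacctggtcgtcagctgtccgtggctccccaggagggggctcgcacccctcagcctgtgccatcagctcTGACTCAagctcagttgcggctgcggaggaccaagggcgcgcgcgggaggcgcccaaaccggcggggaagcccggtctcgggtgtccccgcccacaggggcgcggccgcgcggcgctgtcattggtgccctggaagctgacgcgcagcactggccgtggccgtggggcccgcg
Xpot: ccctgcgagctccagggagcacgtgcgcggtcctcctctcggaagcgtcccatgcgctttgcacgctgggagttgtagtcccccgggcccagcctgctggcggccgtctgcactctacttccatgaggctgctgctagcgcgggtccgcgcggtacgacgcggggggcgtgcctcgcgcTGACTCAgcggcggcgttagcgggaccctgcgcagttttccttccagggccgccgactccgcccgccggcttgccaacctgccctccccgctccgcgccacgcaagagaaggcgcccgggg

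Levels were first compared between members with the deposited TPM, which divides by transcript length. Atf4 was the most abundant, at a mean of 846 TPM over the 18 libraries, followed by Ddit3 at 826, Slc3a2 at 592 and Ppp1r15a at 568. Their ranges over the libraries overlapped, from 480.1 to 1314 TPM for Atf4 and from 521 to 1118 TPM for Ddit3. Atf4 encodes the main effector of the response and Ddit3 encodes CHOP, a partner of C/EBP proteins, so 2 of its central factors were abundant transcripts in mast cells. At the low end Slc7a11 had a mean of 0.308 TPM and Cth, cystathionine gamma-lyase of the transsulfuration pathway, 0.191 TPM. Cth had 0 to 14 counts per library and 114 in all, and it was at 0 counts in number 414 of KO at 0, number 6110 of KO at 60 and number 414 of WT at 20. In a library of this size 3 counts, the limit that a count of 0 allows, correspond to 0.071 to 0.15 CPM, and such limits cover counting error only. Beside Cth, the transcripts with the widest ranges on the log scale were Atf3, from 1.08 to 95.2 TPM, and Chac1, from 0.886 to 37.7 TPM.

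**Figure D1:**
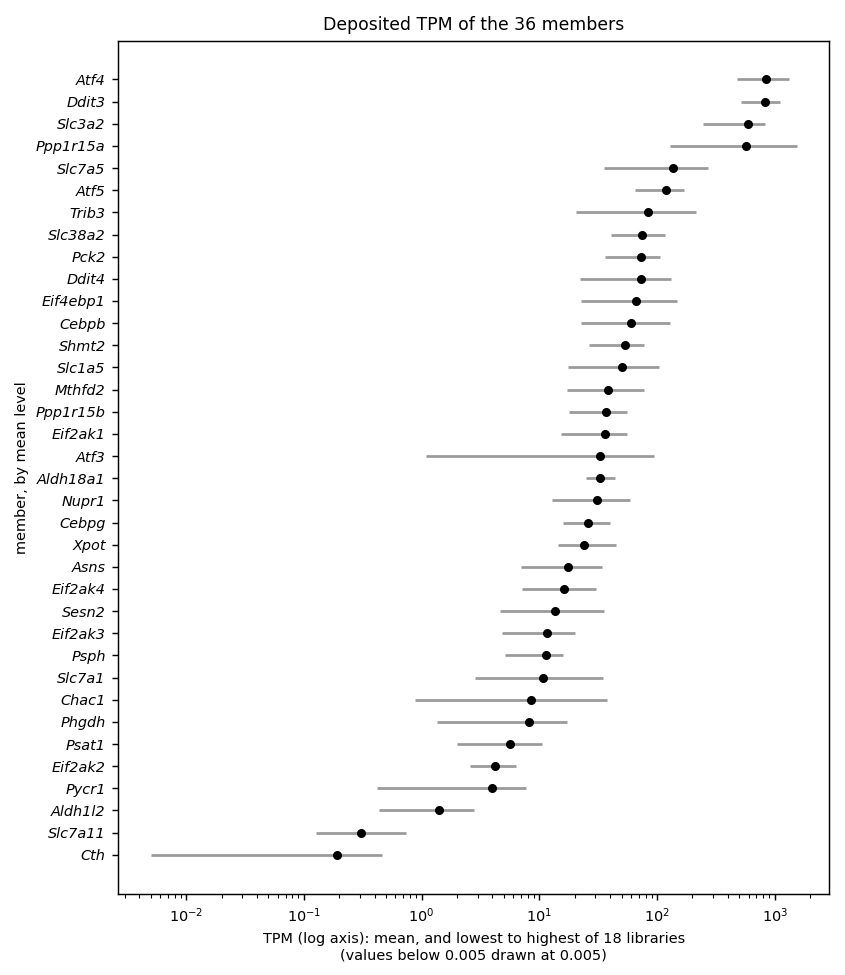
Deposited TPM of the 36 members on a log axis, ordered by mean; points are means over the 18 libraries and bars run from the lowest to the highest library. Atf4 and Ddit3 stand at the top with means of 846 and 826 TPM, Slc7a11 and Cth at the bottom, and Atf3 and Chac1 have the longest bars apart from Cth.

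The first question was how the members differed between levels within a genotype. At level 20 only Ppp1r15a and Atf3 passed the test, and both did so in each genotype. edgeR's quasi-likelihood test called 2 of the 36 members higher at 20 than at 0 in KO, where 0.449% of all tested genes were called, and 2 of 36 in WT, where 0.6% were called. A gene is called here at a Benjamini-Hochberg adjusted p under 0.05 over all tested genes. The members' median log2 fold change at 20 was 0.04 in KO and -0.02 in WT, beside -0.03 and -0.02 for all tested genes.

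At level 60 the picture was broader in KO. There 9 of 36 members were called against level 0, all higher (Atf3, Chac1, Slc7a1, Slc7a11, Sesn2, Trib3, Mthfd2, Asns and Xpot), where 2.54% of all tested genes were called in either direction and 1.99% were called higher. The median log2 fold change of the 36 members was 0.71 in KO, against 0.00 for all tested genes, and 30 of 36 were positive. In WT no member was called at 60 against 0, where 0.221% of all genes were called, and the smallest adjusted p was 0.056, for Atf3 and for Slc7a1. The WT median was 0.31, against -0.02 for all genes, with 26 of 36 positive. At an unadjusted p under 0.05, 9 members differed in WT, 8 of them higher, where 4.69% of all genes were higher by that rule. DESeq2 called 12 members in KO, where it called 5.96% of the genes it tested, and 2, Atf3 and Slc7a1, in WT, where it called 1.71%. The sign of the response at 60 was the same in KO and WT for 30 of 36 members, 25 positive and 5 negative, or 83.3% of members beside 73% of all tested genes. In the plot of responses at 60, 31 of 36 KO estimates lie right of the WT ones, beside 52.4% of all tested genes.

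These counts rested on few libraries. Without number 4120 or without number 414 of KO at 0, 2 members were called in KO at 60, Atf3 and Slc7a1. All genes called also fell, to 179 and 174, against 436 with all libraries. Atf3 and Slc7a1 were the 2 members called in each of the 6 fits that left out 1 library of that comparison. The count was 3 without number 6110 of KO at 60, 5 without number 4120 of KO at 60, and 7 without number 414 of KO at 60 or number 6110 of KO at 0. All genes called in these fits were 245, 228, 360 and 353, in that order. Of the 7 without number 414 of KO at 60, 1 was lower, the kinase Eif2ak2. Same-numbered KO libraries deviated together, with correlations of 0.354 to 0.675, and with the number as a block the count was 16, of which 15 were higher, where 6.38% of all genes were called. The block added Psat1, Slc7a5, Cebpb, Ppp1r15a, Shmt2 and Atf4 as higher and Eif2ak3 as lower. For WT at 60 against 0, Atf3 and Slc7a1 were called without number 4120 or number 414 of WT at 60, of 47 and 73 genes called. Without number 6110 of WT at 60 no gene of the whole table was called, and so no member. The members' median was then 0.05.

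**Figure D2:**
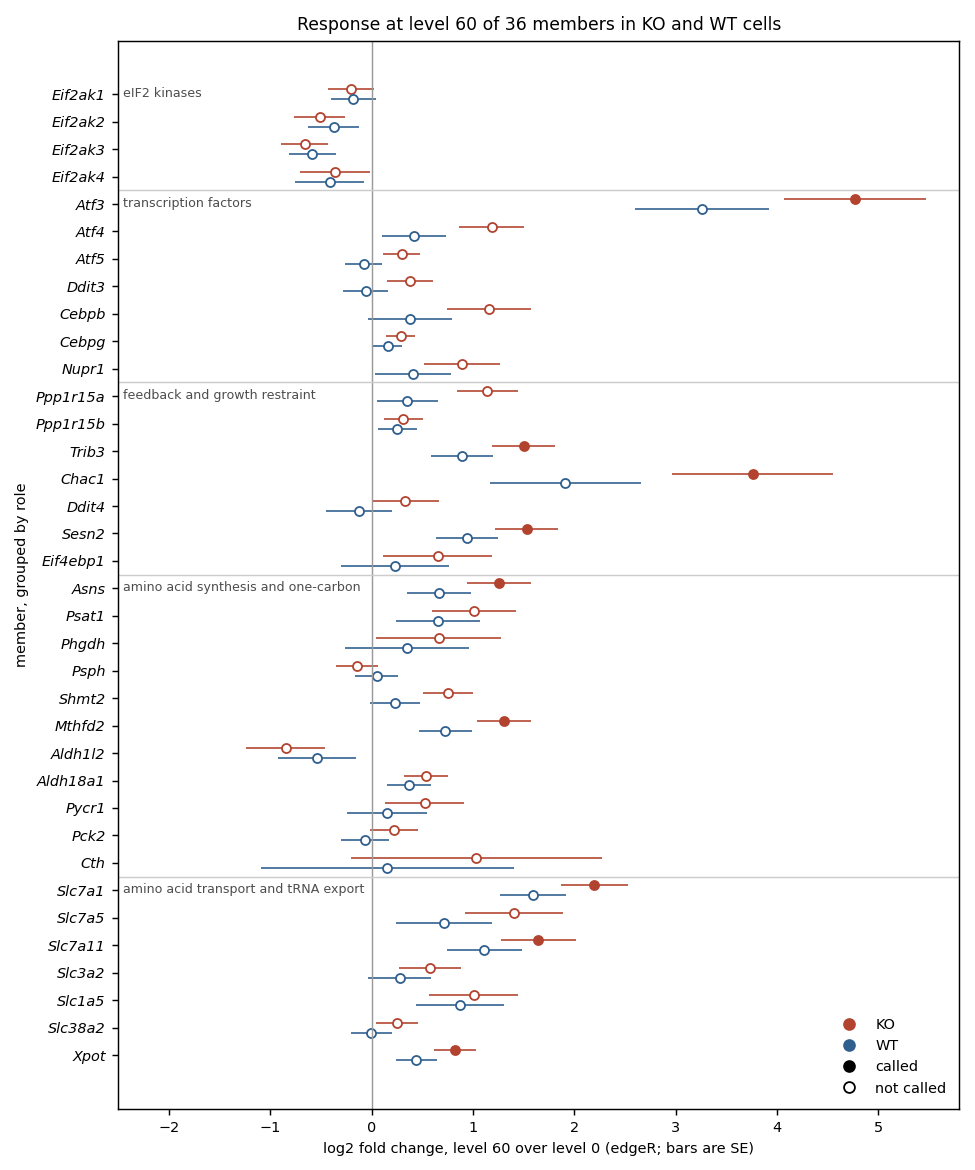
Log2 fold change of level 60 over level 0 for each member in KO (red, upper point of each pair) and WT (blue, lower point), by role, with bars of 1 SE from the edgeR fit; filled points are called. The 9 filled points are all KO, and the 4 eIF2 kinases lie left of 0 in both genotypes.

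Between levels 20 and 60 the members changed in both directions. In KO 6 of 36 were called, where 1.11% of all genes were called and 0.752% were called higher: Slc7a1, Mthfd2, Trib3, Sesn2 and Xpot rose and Ppp1r15a fell. With the number as a block 12 members were called in KO, where 3.04% of all genes were, and 11 of the 12 were higher. DESeq2 also called 12 in KO, 11 of them higher, beside 3.18% of the genes it tested, and 5 in WT, beside 1.94%. In WT 2 of 36 were called, where 0.443% of genes were: Slc7a1 rose and Ppp1r15a fell. The KO count was 1, Slc7a1, without number 4120 or number 414 of KO at 20, of 52 and 32 genes called, against 191 with all libraries. It was 2 when any 1 library of KO at 60 was left out, of 60 to 62 genes, and 3 without number 6110 of KO at 20, of 61 genes. The WT count was 1, Ppp1r15a, without number 4120 or number 414 of WT at 20, of 47 and 38 genes called, against 76 with all libraries. Without number 6110 of WT at 60 it was 2, Ppp1r15a and Atf3, both lower at 60, of 59 genes called. Group means peaked at 60 for 27 of 36 members in KO, beside 39.4% of all genes, and for 19 of 36 in WT, beside 33% of all genes.

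The eIF2 kinases sense different stresses: Eif2ak1 (HRI) haem shortage and mitochondrial stress, Eif2ak2 (PKR) double-stranded RNA, Eif2ak3 (PERK) unfolded protein in the endoplasmic reticulum, and Eif2ak4 (GCN2) uncharged tRNA. With all libraries and no block, none of the 4 was called between levels or genotypes, and Eif2ak3 alone had an unadjusted p under 0.05 at 60 against 0 (0.0123 in KO and 0.0239 in WT, edgeR). All 4 had negative estimates at 60 against 0 in KO, from -0.66 for Eif2ak3 to -0.20 for Eif2ak1, and in WT, from -0.59 for Eif2ak3 to -0.18 for Eif2ak1. Eif2ak3 averaged 37.7 ± 3.91, 34.2 ± 1.34 and 23.9 ± 3.89 CPM in KO at 0, 20 and 60, and 30.5 ± 8.28, 29.6 ± 6.78 and 20.3 ± 4.92 CPM in WT (SD, n = 3). With the block Eif2ak3 fell in KO at 60 (log2 fold change -0.68 ± 0.18 SE, edgeR adjusted p = 0.0388).

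Among the transcription factors Atf3 moved most. ATF3 is a stress-induced factor that dampens inflammatory transcription in macrophages and is also an immediate early gene of many stimuli. Values of the 3 libraries are given in the order 4120, 414, 6110. Atf3 (gene ID 11910, chromosome 1, 191170296 to 191183333 in GRCm38) had 3.43, 2.87 and 3.26 CPM in KO at 0, 71.1, 50.9 and 27.9 CPM at 20, and 83.7, 64.4 and 113 CPM at 60. WT cells had 1.78, 1.54 and 4.82 CPM at 0, 43.7, 75.2 and 48.7 CPM at 20, and 9.50, 9.48 and 60.1 CPM at 60. Every library at 20 was therefore above every library at 0 in both genotypes, whereas at 60 the KO libraries stayed high and WT had 1 high and 2 low libraries. The log2 fold change at 20 against 0 was 3.97 ± 0.68 (SE) in KO, 15.7-fold, and 4.34 ± 0.69 in WT, 20.2-fold, with edgeR adjusted p of 0.00804 and 0.00455. At 60 against 0 it was 4.77 ± 0.70 in KO (27.2-fold, adjusted p = 0.00166) and 3.26 ± 0.66 in WT (adjusted p = 0.056). The call at 20 in KO was lost without any 1 of the 3 KO libraries at 0, and that in WT without number 414 of WT at 0, with adjusted p up to 0.0962 and 0.0542 in edgeR's test.

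Atf4 (gene ID 11911, chromosome 15, 80255184 to 80257545) had 625, 699 and 468 CPM in KO at 0, 708, 775 and 661 CPM at 20, and 1103, 1822 and 1151 CPM at 60. WT values were 941, 543 and 833 CPM at 0, 1086, 603 and 1003 CPM at 20, and 878, 742 and 1475 CPM at 60. The KO libraries at 60 lay above all KO libraries at 0 and 20, and the WT levels overlapped. The difference at 60 against 0 was 1.19 ± 0.32 in KO and 0.42 ± 0.32 in WT on the log2 scale (SE), neither called, with edgeR adjusted p of 0.0649 and 0.875. It was called in KO with the block (adjusted p = 0.0419, edgeR), with the mitochondrial share as a covariate (adjusted p = 0.0216, edgeR) and by DESeq2 (adjusted p = 0.00462).

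Ddit3 (gene ID 13198, chromosome 10, 127290793 to 127296291) had 508, 485 and 390.2 CPM in KO at 0, 503, 479 and 497 CPM at 20, and 529.9, 673 and 596 CPM at 60. In WT it had 592, 476 and 652 CPM at 0, 529.9, 448 and 782 CPM at 20, and 497, 503 and 653 CPM at 60. CHOP is the best-known death-promoting output of a long stress response, and its transcript was not called between any levels. The KO libraries at 60 lay above those at 0, by an estimate with a 95% interval of -0.10 to 0.86 on the log2 scale, and the WT levels overlapped, with an interval of -0.54 to 0.42. The gene overlaps Mbd6 and Mars1 on the annotation, and whether the kit kept strand is not given, so reads of these genes cannot be told apart where they overlap.

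The other 4 factors were not called between levels by edgeR without the block. Cebpb, which encodes a C/EBP partner of ATF4 and an early factor of inflammatory transcription, averaged 32.3 ± 15.6, 75.1 ± 40.3 and 72.0 ± 22.4 CPM in KO at 0, 20 and 60, and 35.9 ± 10.8, 68.7 ± 13.3 and 46.6 ± 5.98 CPM in WT (SD, n = 3). Its estimate at 20 was positive in both genotypes, at 1.22 ± 0.42 in KO and 0.94 ± 0.41 in WT on the log2 scale (SE). In KO at 60 against 0 it was called with the block (adjusted p = 0.0328) and with the mitochondrial covariate (adjusted p = 0.0389), both in edgeR. DESeq2 called Cebpg, which encodes another partner of ATF4, higher at 60 against 20 in KO (adjusted p = 0.0206) and in WT (adjusted p = 0.0154). Atf5, Cebpg and Nupr1 had estimates at 60 against 0 of 0.30, 0.29 and 0.89 in KO and -0.08, 0.16 and 0.40 in WT. Atf5 overlaps Nup62 and Il4i1b.

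Among the genes of feedback and growth restraint, Ppp1r15a and Ddit4 had their highest means at 20 in both genotypes, and Ppp1r15a passed the test. Ppp1r15a encodes GADD34, which brings phosphatase 1 to eIF2 and ends the translational block, and in many cells it is also an early gene. Ppp1r15a (gene ID 17872, chromosome 7, 45522917 to 45526268) had 275, 225 and 169 CPM in KO at 0, 1470.3, 1905 and 1172 CPM at 20, and 432, 680.4 and 361 CPM at 60. WT cells had 334, 251 and 345 CPM at 0, 1452, 1644 and 1811 CPM at 20, and 291, 354 and 542 CPM at 60. Level 20 thus stood above both other levels in every library. The change at 20 against 0 was 2.77 ± 0.32 in KO, 6.80-fold, and 2.40 ± 0.31 in WT, 5.28-fold (log2 ± SE; edgeR adjusted p = 0.000157 and 0.000625). Ppp1r15a then fell by 1.63 ± 0.30 on the log2 scale at 60 against 20 in KO (adjusted p = 0.0187) and fell by 2.05 ± 0.31 in WT (adjusted p = 0.00457, edgeR). At 60 against 0 it was called higher in KO with the block (1.12 ± 0.30, edgeR adjusted p = 0.0391). The same call was made with the mitochondrial share as a covariate (edgeR adjusted p = 0.0291) and by DESeq2 (adjusted p = 0.00337), and in WT by none of these fits. Tulp2 overlaps this gene. Its constitutive relative Ppp1r15b stayed between 82.9 and 151 CPM in all 18 libraries and was not called.

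Chac1 encodes an enzyme that degrades glutathione and is a known target of ATF4 and CHOP. The gene (ID 69065, chromosome 2, 119351242 to 119354326) had 0.942, 1.58 and 3.28 CPM in KO at 0, 4.02, 4.79 and 7.47 CPM at 20, and 21.5, 22.4 and 35.4 CPM at 60. WT cells had 1.17, 1.24 and 4.51 CPM at 0, 1.53, 2.14 and 6.98 CPM at 20, and 4.18, 3.07 and 19.1 CPM at 60. Number 6110 was the highest library in each of the 6 groups. At 60 against 0 the log2 change was 3.76 ± 0.79 in KO (13.5-fold, edgeR adjusted p = 0.0167) and 1.91 ± 0.74 in WT (adjusted p = 0.471). With the number as a block 3 members were called in KO at 20 against 0, where 0.612% of all genes were: Ppp1r15a, Atf3 and Chac1, the last at 1.65 ± 0.35 (adjusted p = 0.0484).

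Trib3 and Sesn2 restrain growth signalling, Trib3 as a pseudokinase that binds ATF4 and AKT and Sesn2 as a leucine sensor upstream of mTORC1. Trib3 (gene ID 228775, chromosome 2, 152337425 to 152344060) had 54.9, 71.6 and 91.1 CPM in KO at 0, 70.2, 82.6 and 78.7 CPM at 20, and 212, 184 and 219 CPM at 60. In WT it had 43.4, 75.2 and 88.3 CPM at 0, 33.4, 62.6 and 74.6 CPM at 20, and 104, 108 and 173 CPM at 60. At 60 Trib3 was therefore above its values at 0 in every library of both genotypes, by 1.5 ± 0.31 in KO and 0.89 ± 0.31 in WT (log2 ± SE), with edgeR adjusted p of 0.0151 and 0.366. Sesn2 (gene ID 230784, chromosome 4, 132492804 to 132510456) had 11.0, 10.6 and 23.1 CPM in KO at 0, 15.8, 15.8 and 18.8 CPM at 20, and 46.2, 34.9 and 48.5 CPM at 60. The WT values were 11.0, 11.9 and 12.6 CPM at 0, 9.79, 17.0 and 18.5 CPM at 20, and 22.4, 16 and 29.7 CPM at 60. It changed by 1.53 ± 0.31 in KO (adjusted p = 0.0126) and had an estimate of 0.94 ± 0.31 in WT (adjusted p = 0.324, edgeR). Ddit4 (REDD1, an mTORC1 inhibitor) averaged 62.9 ± 16, 101 ± 15.4 and 79.3 ± 21.2 CPM in KO at 0, 20 and 60, and 52.4 ± 15.1, 75.9 ± 20.4 and 47.9 ± 23.6 CPM in WT (SD, n = 3). Ddit4 and Eif4ebp1 (a repressor of cap-dependent translation) had estimates at 60 of 0.33 and 0.65 in KO and -0.13 and 0.23 in WT and were not called.

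**Figure D3:**
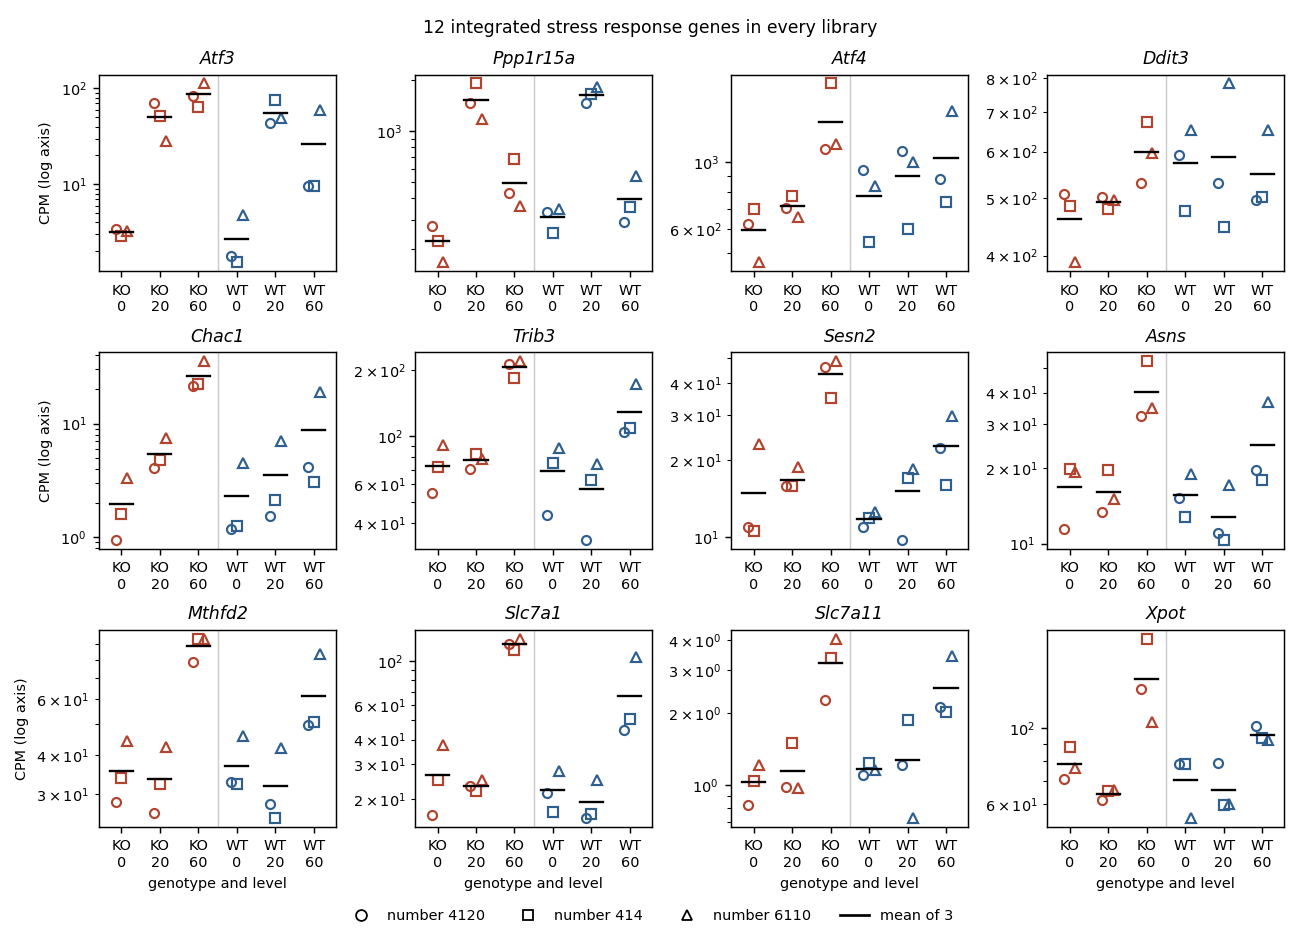
CPM of 12 members in each library on log axes that differ between panels, with KO at levels 0, 20 and 60 left of WT; symbols mark the numbers 4120, 414 and 6110 and bars are means of 3. Ppp1r15a is highest at 20 in both genotypes, most others at 60, and number 6110 of WT at 60 stands above the other 2 WT libraries for Atf3, Chac1 and Slc7a1.

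In amino acid synthesis and one-carbon metabolism 2 of 11 members were called in KO at 60 against 0, Mthfd2 and Asns, and none in WT. Of all tested genes 2.54% were called in KO and 0.221% in WT. Mthfd2 is the mitochondrial folate enzyme that feeds purine synthesis, and Asns makes asparagine. Mthfd2 (gene ID 17768, chromosome 6, 83305704 to 83326011) had 28.4, 33.8 and 44.3 CPM in KO at 0, 26.2, 32.5 and 42.2 CPM at 20, and 78.6, 92.9 and 92.9 CPM at 60. WT cells had 32.8, 32.3 and 45.9 CPM at 0, 28.1, 25.3 and 42.0 CPM at 20, and 49.7, 50.8 and 83.2 CPM at 60. The libraries at 60 lay above those at 0 in both genotypes, with a log2 change of 1.31 ± 0.27 in KO (SE, edgeR adjusted p = 0.0128) and an estimate of 0.73 ± 0.26 in WT (adjusted p = 0.409). Asns (gene ID 27053, chromosome 6, 7675165 to 7693209) had 11.5, 19.7 and 19.3 CPM in KO at 0, 13.3, 19.7 and 15 CPM at 20, and 32.4, 53.4 and 34.8 CPM at 60. Its WT values were 15.3, 12.8 and 19.0 CPM at 0, 11.0, 10.3 and 17.1 CPM at 20, and 19.7, 17.9 and 36.8 CPM at 60. The change was 1.25 ± 0.32 in KO (adjusted p = 0.0469) and the WT estimate was 0.66 ± 0.31 (adjusted p = 0.633), so that the KO call lay just inside the threshold.

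The serine pathway did not move as a block. Psat1 and Phgdh had positive estimates at 60 against 0, at 1.01 and 0.66 in KO and 0.65 and 0.35 in WT, whereas Psph, the last step to serine, had -0.14 in KO and 0.05 in WT. Shmt2, which splits serine to glycine and a one-carbon unit in mitochondria, averaged 58.2 ± 1.27, 51.1 ± 9.77 and 98.2 ± 27.2 CPM in KO at 0, 20 and 60, and 81.8 ± 5.96, 59.0 ± 12 and 95.8 ± 32.3 CPM in WT (SD, n = 3). Aldh1l2, a mitochondrial folate enzyme, ran the other way from Mthfd2, at 5.45 ± 2.11 CPM at 0 and 3.02 ± 0.803 CPM at 60 in KO, and 6.81 ± 2.56 and 4.69 ± 1.21 CPM in WT. None of these 5 was called by edgeR without the block. DESeq2, also without it, called Psat1 (adjusted p = 0.025) and Shmt2 (adjusted p = 0.014) higher in KO at 60 against 20. The proline genes Aldh18a1 and Pycr1 had estimates of 0.54 and 0.52 in KO and 0.37 and 0.15 in WT, and Pck2, mitochondrial phosphoenolpyruvate carboxykinase, had 0.22 and -0.07. Psph overlaps Cct6a, and Shmt2 overlaps Ndufa4l2.

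Slc7a1 was the transporter called in both genotypes. It encodes CAT1, the importer of arginine and lysine. Slc7a1 (gene ID 11987, chromosome 5, 148327410 to 148399904) had 16.6, 25.1 and 37.5 CPM in KO at 0, 23.2, 22.1 and 25.1 CPM at 20, and 121, 114 and 129 CPM at 60. WT libraries had 21.5, 17.2 and 27.7 CPM at 0, 16.1, 16.8 and 25.1 CPM at 20, and 44.6, 50.9 and 104 CPM at 60. Levels 0 and 20 overlapped and 60 stood above both in each genotype. Slc7a1 rose by 2.37 ± 0.34 in KO and by 1.79 ± 0.33 in WT at 60 against 20 on the log2 scale (SE; edgeR adjusted p = 0.0033 and 0.02). Against 0 it rose by 2.2 ± 0.33 in KO (4.59-fold, adjusted p = 0.00201) and had an estimate of 1.59 ± 0.33 in WT (adjusted p = 0.056). The calls in KO held in all 12 alternative fits of each comparison, with edgeR or DESeq2 adjusted p up to 0.0238 against 0 and up to 0.0387 against 20. Without number 6110 of WT at 60 the WT change against 20 was 1.29 and no longer called (adjusted p = 0.108).

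Slc7a11 encodes xCT, which imports cystine in exchange for glutamate, and it was expressed near the floor. The gene (ID 26570, chromosome 3, 50364936 to 50499087) had 0.828, 1.04 and 1.22 CPM in KO at 0, 0.980, 1.5 and 0.973 CPM at 20, and 2.26, 3.37 and 4.05 CPM at 60. In WT it had 1.11, 1.24 and 1.16 CPM at 0, 1.21, 1.86 and 0.732 CPM at 20, and 2.12, 2.01 and 3.46 CPM at 60. Its libraries at 60 were above all others in both genotypes, and the log2 change at 60 against 0 was 1.64 ± 0.37 in KO (SE, edgeR adjusted p = 0.0243) and 1.11 ± 0.37 in WT (adjusted p = 0.326). Xpot, the nuclear export receptor for tRNA (gene ID 73192, chromosome 10, 121587380 to 121626506), had 71.0, 87.9 and 76.4 CPM in KO at 0, 61.4, 65.2 and 65.7 CPM at 20, and 129.9, 182 and 104 CPM at 60. The WT values were 78.2, 78.3 and 54.6 CPM at 0, 78.7, 59.6 and 59.8 CPM at 20, and 101, 93.2 and 92.2 CPM at 60. It rose by 0.82 ± 0.21 in KO at 60 against 0 (adjusted p = 0.0443) and had an estimate of 0.44 ± 0.21 in WT (adjusted p = 0.616).

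The heavy chain Slc3a2 pairs with Slc7a5 (LAT1, the leucine importer) and with Slc7a11, and it was far more abundant than either by TPM. Slc7a5 averaged 168 ± 84.5, 347 ± 53.3 and 444 ± 122 CPM in KO at 0, 20 and 60, and 141 ± 79.3, 340.0 ± 111 and 230.2 ± 152 CPM in WT (SD, n = 3). Slc3a2 averaged 633 ± 52.0, 672 ± 96.5 and 944 ± 193 CPM in KO and 618 ± 248, 749 ± 141 and 748 ± 293 CPM in WT. The glutamine importer Slc1a5 had estimates at 60 against 0 of 1.01 in KO and 0.87 in WT, and Slc38a2, a neutral amino acid importer known to respond to amino acid starvation, 0.25 and 0.00. These 4 were not called by edgeR without the block. With it Slc7a5 was called in KO at 60 against 0 (adjusted p = 0.0121) and Slc1a5 in KO at 60 against 20 (1.26 ± 0.32, adjusted p = 0.0476), both higher. DESeq2 called Slc7a5 in KO at 60 against 0 (adjusted p = 0.0424).

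The second question was whether KO and WT differed. At level 0 no member was called, where 0.274% of all tested genes were, and none had an unadjusted p under 0.05. The same held at 20, where 0.21% of genes were called, and with the counts of the 3 levels summed per number and genotype, where 0.142% of 18280 genes were called. At 60 no member was called by edgeR, where 0.268% of genes were, and the smallest adjusted p was 0.311, for Sesn2. DESeq2 called no member in any of these 4 comparisons. Of all genes it called 244 at 0, 117 at 20, 216 at 60 and 397 with the summed counts. At an unadjusted p under 0.05, 8 of 36 members differed at 60, all higher in KO, where 4.71% of all genes were higher in KO by that rule. Their log2 differences were 1.72 ± 0.61 for Atf3, 1.59 ± 0.72 for Chac1, 0.93 ± 0.31 for Sesn2, 0.86 ± 0.32 for Slc7a1, 0.73 ± 0.33 for Ddit4, 0.69 ± 0.31 for Asns, 0.68 ± 0.31 for Trib3 and 0.54 ± 0.20 for Xpot (SE). Estimates at 60 were above 0 for 32 of 36 members, beside 52% of all tested genes, with a median of 0.35 beside 0.02. The median was 0.00 at level 0 and 0.06 at 20.

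Paired by number the KO libraries at 60 were higher for 31, 33 and 23 of 36 members in numbers 4120, 414 and 6110, beside 50.1%, 50.4% and 50.5% of all genes. The medians of the members' differences in log2(CPM + 0.1) were 0.40, 0.75 and 0.07. For Atf3 the paired differences were 3.13, 2.75 and 0.90, for Chac1 2.34, 2.83 and 0.89, and for Sesn2 1.04, 1.12 and 0.71. Same-numbered KO and WT libraries at 60 deviated together, with correlations of 0.445 to 0.53. With the number as a block 1 member was called at 60, Chac1, higher in KO by 1.99 ± 0.34 on the log2 scale (SE, edgeR adjusted p = 0.00993), where 1.07% of all genes were called. At 0 KO was higher for 15, 24 and 17 of 36 members in the 3 numbers, and at 20 for 22, 25 and 16.

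Number 6110 of WT at 60 stood apart from the other 2 WT libraries for this list. It had the highest CPM of the 3 for 26 of 36 members, beside 31.9% of all tested genes. The same number was highest for 22 members in WT at 0, beside 36% of genes, and 23 in WT at 20, beside 31.4%. In KO it was highest for 16, 19 and 14 members at 0, 20 and 60, beside 36.5%, 33.1% and 33.6% of genes. Without number 6110 of WT at 60, Atf3 was called between KO and WT at 60, of 51 genes called. The members' median difference was then 0.66, and 32 of 36 estimates were positive. Neutrophil markers at 60 summed to 17.9 to 24.7 CPM in KO and 3.60 to 6.61 CPM in WT, and mitochondrial shares averaged 14.5% ± 17.5 in KO and 22.2% ± 17.5 in WT (SD, n = 3). The part of the neutrophil markers in the difference was not tested. With the log2 mitochondrial share as a covariate no member was called between KO and WT at 60 and the median was 0.33.

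**Figure D4:**
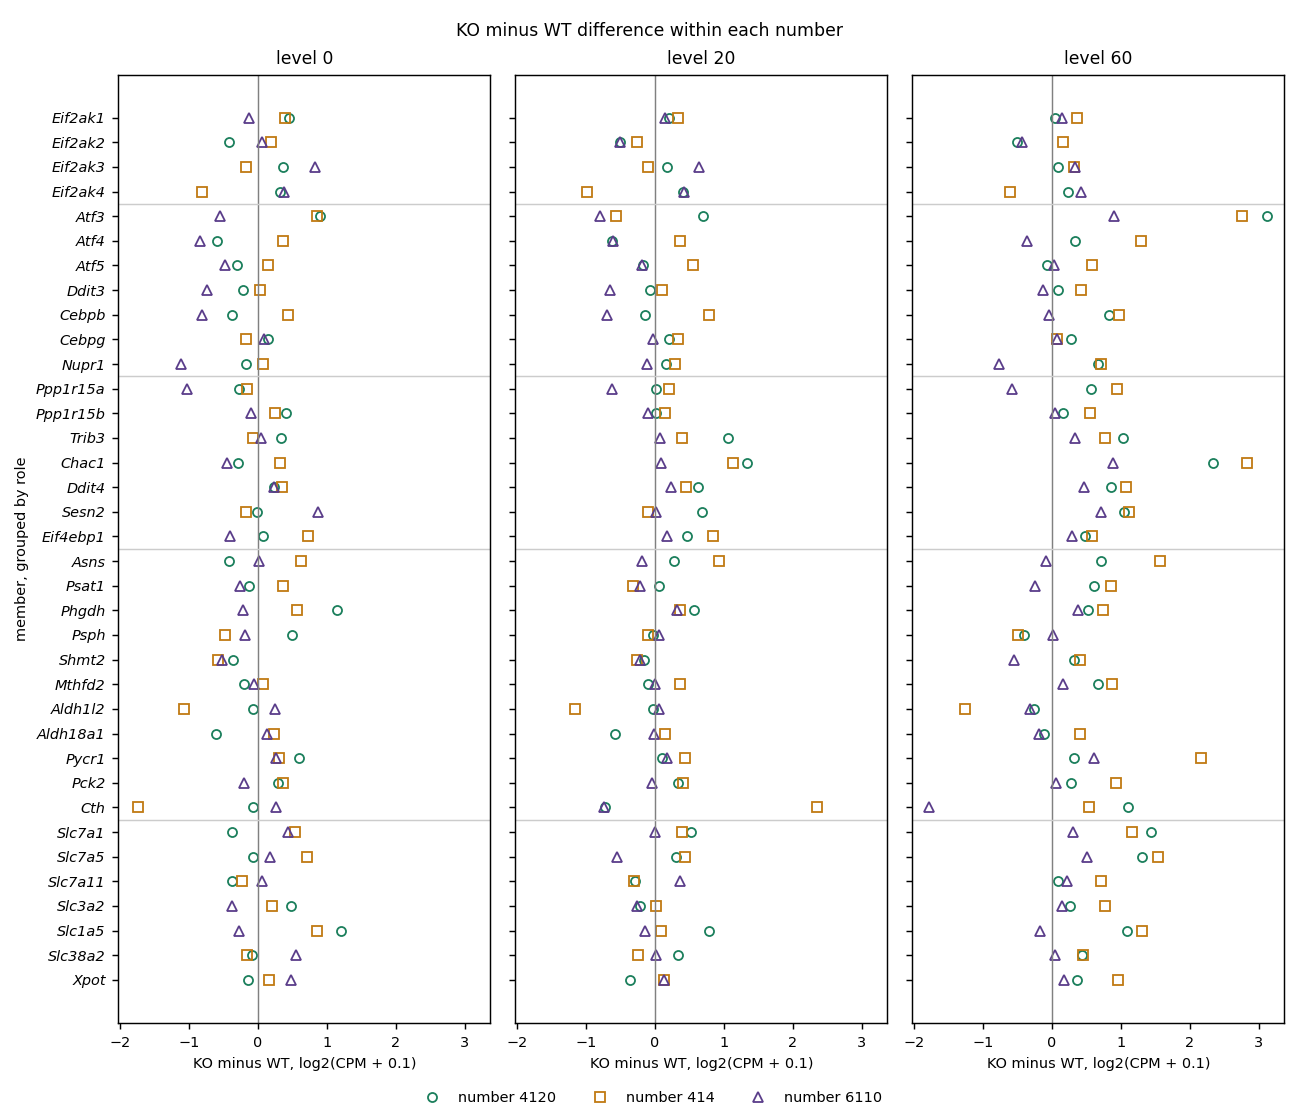
KO minus WT difference in log2(CPM + 0.1) for each member within each of the 3 numbers, at levels 0, 20 and 60, grouped by role. At 0 and 20 the points scatter about 0, and at 60 those of numbers 4120 and 414 lie right of 0 for 31 and 33 of 36 members and those of number 6110 for 23.

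The difference between the genotypes in their response was tested directly as an interaction. No gene of the whole table was called at 20 (0%) or at 60 (0%), and no member had an unadjusted p under 0.05, where 68 and 188 genes did. DESeq2 called 1 and 2 genes and no member. KO minus WT in the response at 60 was positive for 31 of 36 members, beside 52.4% of all tested genes, with a median of 0.40 beside 0.02, and this estimate shares its libraries with the comparisons above. The median was 0.80 without number 6110 of WT at 60 and 0.24 without number 414 of WT at 60, with 31 and 28 of 36 positive. Scaled by library size it was 0.25, with 27 positive, where the median of all genes was -0.12. It was 1.85 for Chac1, with a 95% interval of -0.34 to 4.03, and 1.51 for Atf3, with -0.35 to 3.36 (unadjusted p = 0.0916 and 0.104, edgeR). So the 9 calls in KO and 0 in WT are not shown to be a difference between the genotypes, and the intervals also allow large ones.

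Genes related to the pathway outside the list were read in the same fit. Of 20 further ATF4 targets 18 were tested, and 2 were called in KO at 60 against 0, both higher. Of all tested genes 2.54% were called there and 1.99% were called higher. The 2 were Slc38a1, a glutamine transporter, by 1.40 ± 0.24 (SE, edgeR adjusted p = 0.00419) and Ndrg1 by 1.98 ± 0.47 (adjusted p = 0.0319). Their estimates in WT were 0.94 ± 0.24 and 1.39 ± 0.46 and were not called, the smallest p in WT being that of Slc38a1 at 60 against 20 (1.01 ± 0.24, adjusted p = 0.0845). Among 20 cytosolic aminoacyl-tRNA synthetases, which charge tRNA with amino acids, 4 rose in KO at 60 against 0, beside the same 1.99% of all tested genes. They were Nars by 0.86 ± 0.17, Aars by 0.87 ± 0.19, Mars by 0.79 ± 0.19 and Gars by 0.88 ± 0.22 (adjusted p of 0.0117 to 0.04 in edgeR's test). Of the 20 estimates 17 were positive in KO, with a median of 0.34, and 14 in WT, with a median of 0.12. The medians of all tested genes are those given above for the same comparisons. None was called in WT, where 0.221% of all tested genes were called at 60 against 0. In WT Mars came nearest, at 60 against 20 (0.87 ± 0.19, adjusted p = 0.0578), and RefSeq names this gene, as Mars1, among those overlapping Ddit3.

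None of 9 eIF2 and eIF2B subunits was called. The smallest p was that of Eif2s2, a subunit of eIF2 itself, at 60 against 0, with 0.81 ± 0.22 in KO (edgeR adjusted p = 0.0683) and 0.51 ± 0.22 in WT (adjusted p = 0.574). Of 18 genes of the ATF6 and XBP1 arms of the unfolded protein response 1 was called, Dnajb9, an endoplasmic reticulum co-chaperone. It rose in KO at 60 by 1.60 ± 0.36 (edgeR adjusted p = 0.0235) and had a WT estimate of 1.52 ± 0.36 (adjusted p = 0.119). Of all tested genes 2.54% were called in KO at 60 against 0. No gene of these 4 lists was called between KO and WT at any level. The smallest p in each list belonged to Sdf2l1 of the ATF6 and XBP1 arms, higher in KO at 60 by an estimate of 0.78 ± 0.19 (adjusted p = 0.136), Gfpt1 of the ATF4 targets at level 0 (0.70 ± 0.19, adjusted p = 0.199), Dars of the synthetases at level 0 (0.57 ± 0.19, adjusted p = 0.305), and Eif2s1 of the subunits at 20 (0.35 ± 0.17, adjusted p = 0.629, all edgeR).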

How the data were processed

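A TruSeq kit turned total RNA into mRNA-Seq libraries, per the labels' protocols, with no statement on strand. StringTie 2.1.3b, HISAT2 2.1.0, FastQC 0.11.7, bcl2fastq 2.20.0 and the build mm10 are listed in the submitters' processing notes without roles. The authors deposited a single file with a read count, an FPKM and a TPM per gene and library, per the file headers. Counts were not normalized and were tested, the deposited TPM values served to compare levels between genes, and the deposited FPKM values were not used.

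Genes were kept by filterByExpr and scaled by TMM, and edgeR 4.0.16 (R 4.3.3, limma 3.58.1) gave a quasi-likelihood fit of 6 group means over the 18 libraries. Benjamini-Hochberg adjustment ran over all tested genes and the threshold was 0.05. For the summed comparison counts were added over levels within number and genotype. CPM use TMM-scaled library sizes. Standard errors were taken as the log2 fold change over the square root of F. Alternatives were other scalings, no filter, the replicate number as a block, the mitochondrial share as a covariate, DESeq2 1.42.0, and each library left out. The mitochondrial share was computed over the 37 genes that RefSeq places on the mitochondrial chromosome, in place of genes with the mt- prefix, which had been planned and which only 2 genes of the table carry. No library proved to be a copy of another of its group. The analysis was tested on simulated data.

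The replicate numbers are the only pairing in the labels. They were judged to pair a comparison where the deviations of same-numbered libraries from their group means correlated above 0.1 in all 3 numbers, which was so for KO against WT at 60, for the 3 level comparisons in KO and for WT at 20 against 0 (0.628 to 0.768). Members and gene lists were chosen with earlier results of these data known. Values in every library are given for members called in at least 1 comparison and for Atf4 and Ddit3, and from each other list up to 3 called genes, or the one with the smallest p; the 4th synthetase called was named after its value was seen. Motifs were searched as exact letters on both strands of RefSeq promoter windows in GRCm38.p6. Text was read with the R package data.table (1.17.8), and figures drawn with matplotlib 3.10.9 in Python 3.11.15. Intervals are at 95%.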

Additional observations from a re-analysis of the deposited data

How the results depend on the processing

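With RLE scaling all counts of called members and all 21 member calls of the level comparisons were unchanged, and no result reversed under any alternative. Under scaling by library size the all-gene median moved by 0.16 (log2) between KO and WT at 0 and at 20, by -0.22 for KO at 60 against 0 and against 20, and by -0.14 for the interaction at 60. Members called for KO at 60 against 0 were then 3 (Atf3, Slc7a1 and Chac1), for KO at 60 against 20 they were 2, and for WT at 60 against 20 it was 1, against 9, 6 and 2, while all genes called were 163, 33 and 37, against 436, 191 and 76. Without the filter on low counts 6, 4 and 2 were called there, of 310, 122 and 67 genes, and 1 (Atf3) of 43 genes for WT at 60 against 0. The mitochondrial covariate gave 12 for KO at 60 against 0, 2 for WT at 60 against 0 and 3 for WT at 60 against 20, of 695, 71 and 128 genes. DESeq2 gave 12 for KO at 60 against 0, 12 for KO at 60 against 20, 2 for WT at 60 against 0 and 5 for WT at 60 against 20. The cause of these shifts was not tested.

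With the replicate block members called were 1 for KO against WT at 60, 3, 16 and 12 for KO at 20 against 0, 60 against 0 and 60 against 20, and, where the numbers did not pair the libraries, 4 for WT at 60 against 0 and 5 for WT at 60 against 20. The block changed no other count of members, and all 21 member calls held with it. Genes called in the whole table with the block, and by DESeq2, were 208 and 244 for KO against WT at 0, 119 and 117 at 20, and 183 and 216 at 60, against 47, 36 and 46. For KO at 60 against 0 they were 1094 and 945, against 436, for KO at 60 against 20 521 and 523, against 191, for WT at 60 against 0 206 and 241, against 38, and for WT at 60 against 20 269 and 308, against 76. For WT at 20 against 0 they were 158 and 194, against 103.

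Leaving out 1 library at a time gave 0 to 1 members for KO against WT at 60, of 30 to 51 genes called (46 with all libraries). For KO at 20 against 0 it gave 1 to 2 members, of 54 to 74 genes (77). For KO at 60 it gave 2 to 7 against 0, of 174 to 360 genes (436), and 1 to 3 against 20, of 32 to 62 (191). For WT at 20 against 0 it gave 1 to 2, of 47 to 101 genes (103). For WT at 60 it gave 0 to 2 against 0, of 0 to 73 genes (38), and 1 to 2 against 20, of 38 to 59 (76). It gave 0 for KO against WT at 0, at 20 and with summed counts, and for both interactions. Of 126 such refits of single calls 65 stayed called, in the same direction throughout. The 3 libraries per group limit the precision, and Cth, with 114 counts in all, was measured too thinly to compare levels.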
